A study of Mus musculus with 11 samples.

Results

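Livers of mice that ate a high-fat diet, whether fed or fasted at the end, were compared with livers of mice on chow. The diet group joined high-fat arrays 1 to 3 and fasted arrays 1 to 3, and control arrays 1 to 4 stood against it, so 10 of the 11 arrays of the series were used. Each array measured the liver RNA of 1 C57/BL/6J mouse, labelled with Cy5, against a universal mouse reference RNA labelled with Cy3. Control mice had chow with 6.5% fat, 49% carbohydrate and 23% protein (3.5 kcal/g). High-fat mice had a diet with 42.16% fat, 42.81% carbohydrate and 15.02% protein (4.53 kcal/g), and diet or chow was given for 10 weeks. Fasted mice had the same high-fat diet and no food for the last 48 h. A fasted chow group was not analysed here, so the fast was seen only on top of the diet. The labels used here give neither the age nor the sex of the mice. High-fat array 4, whose label does not name the strain, correlated with the others with Pearson's r between -0.03 and 0.01 and was left out, while the 10 arrays used correlated with r between 0.69 and 0.94.

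The comparison asks which changes on the diet were present in fed and fasted mice alike. The liver detoxifies drugs and steroids with cytochrome P450 enzymes and conjugating enzymes, secretes most plasma proteins, and takes up, makes and exports fat. Chronic high-fat feeding loads hepatocytes with lipid. In a fast, stored fat is burned and glucose is made from other fuels. A gene that stands apart from chow in both diet groups is thus one whose difference was seen in the fed and in the fasted state.

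Each value below is a log2 ratio, liver over reference, on an array centred on its median, so a value of 1 means a liver signal of double the reference relative to the array's middle gene, and a difference of 1 between groups means a 2-fold change. Between 3864 and 5567 of the 17280 spots held a value on an array. A gene needed at least 2 values in each of the 3 original groups, which left 3558 genes, 2262 of them with a value on all 10 arrays. Each gene's 6 diet arrays were tested against its 4 control arrays with limma, and a gene was said to rise or fall at a Benjamini-Hochberg adjusted p under 0.05. Since the gap between fed and fasted mice counts as spread within the diet group, this test favours genes for which that gap is small.

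On the diet 186 genes changed, which is 5.23% of the genes tested. Of these 105 rose (2.95% of all genes) and 81 fell (2.28% of all genes), and 810 genes had an unadjusted p under 0.05. The median rise was 0.61 and the median fall -0.75 on the log2 scale, against a median change of 0.05 over all genes. Changes beyond 1 log2 unit were reached by 13 rises and 22 falls. For 162 of the 186 genes the diet arrays did not overlap with the control arrays, whereas 372 of all genes (10.5%) had no such overlap. The split between rises and falls depended on how arrays were scaled. Rises made up 56.5% of the calls as centred here and 31.1% with centring on the median of only those spots that every array had filled. They made up 69% with the values as deposited, 77.2% with an equal spread set for all arrays (called scaled arrays below) and 83.9% after quantile normalisation. All 186 genes kept their direction under these 4 scalings, as choosing them by their change on the same arrays favours.

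The largest fall was that of Cyp3a11, the main drug-metabolising P450 of the 3A family in mouse liver. Its log2 ratio was 2.99, 4.47, 3.25 and 2.29 on the control arrays, 0.92, 1.37 and 1.52 on the high-fat arrays, and 2.00, 1.11 and 1.03 on the fasted arrays. Control array 2 was highest, and every control array lay above every diet array. Cyp3a11 was 3.80-fold lower on the diet (log2 change -1.93 ± 0.33, SE, n = 6 and 4, limma adjusted p = 0.0109). Cyp2c29, a P450 that also oxidises arachidonic acid, was at 2.66, 3.01, 1.51 and 2.37 in control, at 0.62, 0.51 and 0.87 in high-fat, and at 1.07 and 0.63 in the fasted mice that had a value. Again no diet array reached a control array, and the level was 3.13-fold lower (log2 change -1.65 ± 0.25, limma adjusted p = 0.0101). Both genes were called under every alternative of the analysis that tested them.

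The promoters of these P450 genes are shown because drug and steroid P450 genes are known targets of nuclear receptors, which bind the half-site AGGTCA. The sequences run from 250 bases before to 50 bases after the first listed start, from RefSeq on GRCm38.p6, and capitals mark the half-site and the TATA box motif TATAAA on either strand. Cyp3a11 lies on the minus strand (chr5:145879805-145880104) and Cyp2c29 on the plus strand (chr19:39286835-39287134).
Cyp3a11: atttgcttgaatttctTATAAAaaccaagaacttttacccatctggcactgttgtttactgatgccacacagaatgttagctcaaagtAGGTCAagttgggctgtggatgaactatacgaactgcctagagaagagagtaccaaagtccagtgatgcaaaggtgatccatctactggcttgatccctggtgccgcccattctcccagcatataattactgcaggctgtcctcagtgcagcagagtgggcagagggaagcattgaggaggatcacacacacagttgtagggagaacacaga
Cyp2c29: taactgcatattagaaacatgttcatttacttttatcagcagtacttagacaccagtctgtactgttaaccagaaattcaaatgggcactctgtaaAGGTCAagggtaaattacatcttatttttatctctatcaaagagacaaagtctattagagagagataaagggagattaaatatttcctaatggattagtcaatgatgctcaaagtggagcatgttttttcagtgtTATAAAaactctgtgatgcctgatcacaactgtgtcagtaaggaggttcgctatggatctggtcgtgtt
In Cyp3a11 the half-site begins at base -162 and the TATAAA at base -234, and in Cyp2c29 they begin at -154 and -19. AGGTCA was found on either strand in 15.9% of the 63 falling genes with a listed promoter, in 18.9% of the 74 rising genes, in 13.2% of all 2555 tested genes with one and in 16% of all 27025 promoters in the table. The shares for TATAAA were 11.1%, 8.11%, 11% and 14.2%. A match describes the letters in this window and is not a measured binding site.

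Among the 11 P450 genes tested 2 fell, 0 rose and the median change was -0.36. Over all genes tested 2.28% fell and 2.95% rose, and the list counts below stand against these shares. No list was tested as a set. The other 9 were not called, among them Cyp2e1, the ethanol-oxidising P450, at -0.47 (limma adjusted p = 0.151). Scaled arrays moved the list's median to -0.09, and quantile normalisation moved it to -0.01. The values of Cyp2c37, another P450, split by feeding state. It was at 0.48, 0.02 and 0.00 on the high-fat arrays and at 1.68, 1.91 and 1.67 on the fasted arrays, against 1.22, 2.86, 2.29 and 1.69 in control. The fasted arrays lay within the control range and the high-fat arrays below it, so the diet change over all 6 arrays was -1.06 with an adjusted p of 0.167 in limma. Its fasted-minus-high-fat difference was 1.59 (95% interval 0.87 to 2.30, limma adjusted p = 0.0685).

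Of 19 conjugation and detoxification genes 2 fell and 0 rose, with a median of -0.20 (0.04 after quantile normalisation). Gsta3, a glutathione transferase, was at 2.52, 3.37, 2.26 and 1.91 in control. Its 4 diet values were 0.90 and 1.81 in high-fat and 1.28 and 1.20 in fasted mice. All of them lay below the controls (log2 change -1.22 ± 0.29, limma adjusted p = 0.0398), but the call was lost with scaled or quantile-normalised arrays. The Gsta3 call was lost without control array 1 or 3 or high-fat array 2 (limma adjusted p = 0.0530 to 0.0777). Nnmt, which methylates nicotinamide, fell by 0.70 (limma adjusted p = 0.0227). It was not called on values as deposited or under either of those scalings. Without control array 1 or 3, Nnmt was not called (limma adjusted p = 0.0512 to 0.0562). Ces1c, a secreted carboxylesterase, and Gstm1, another glutathione transferase, stood at -1.17 and -0.75 with an adjusted p of 0.05004 each in limma, just above the threshold. Papss1, which makes the sulfate donor used in conjugation, fell by 1.13 on the log2 scale (limma adjusted p = 0.0398). Papss1 was no longer called when control array 1, 2 or 3, high-fat array 2 or fasted array 2 was left out (limma adjusted p = 0.0531 to 0.0966).

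The retinoid list had 2 falls among 6 tested genes and no rise. Aldh1a1, which turns retinal into retinoic acid, was at 1.26, 3.06, 2.33 and 1.97 in control, at 0.66, 0.42 and 0.78 in high-fat and at 1.5, 1.08 and 1.06 in fasted mice. Fasted array 1 overlapped with control array 1, and the change was -1.24 ± 0.29 (limma adjusted p = 0.0342). The Aldh1a1 call was lost without control array 2 or 3, high-fat array 2 or 3 or fasted array 2 (limma adjusted p = 0.0541 to 0.0782). Ttr, the plasma carrier of thyroid hormone and of retinol-binding protein, was at 2.69, 2.99, 2.45 and 2.35 in control. On the diet it was at 2.64, 1.47 and 1.93 in fed mice and at 1.12, 1.35 and 1.25 in fasted mice. High-fat array 1 lay within the control range, the fasted arrays lay below all others, and the change was -0.99 ± 0.26 (limma adjusted p = 0.0453). The Ttr call was lost under both scalings of array spread. Ttr was no longer called when control array 1, 2, 3 or 4, high-fat array 2 or 3 or fasted array 1, 2 or 3 was left out (limma adjusted p = 0.0504 to 0.102). The list's median of -0.23 moved to -0.06 with scaled arrays, to -0.01 after quantile normalisation and to 0.08 without control array 2.

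Apoa1, the main protein of high-density lipoprotein, was at 2.40, 3.08, 2.15 and 1.95 in control, at 1.03, 1.26 and 1.88 in high-fat and at 1.37, 1.47 and 1.63 in fasted mice. The groups did not overlap, though high-fat array 3 came close to control array 4. It fell by 0.96 on the log2 scale, or 1.94-fold (limma adjusted p = 0.0283), as the only call among 10 apolipoprotein and lipoprotein genes. Apoa1 was not called with scaled or quantile-normalised arrays. The Apoa1 call was lost without control array 1, high-fat array 2 or fasted array 2 (limma adjusted p = 0.0535 to 0.0610). Alb, the albumin gene, was at -0.73 with an adjusted p of 0.0740 in limma, and its arrays overlapped. Of the 12 secreted plasma carriers 1 fell, which was Ttr, and of the 11 acute-phase, complement and coagulation genes none was called. Crp, an acute-phase protein, came closest at -0.69 (limma adjusted p = 0.05004).

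**Figure D1:**
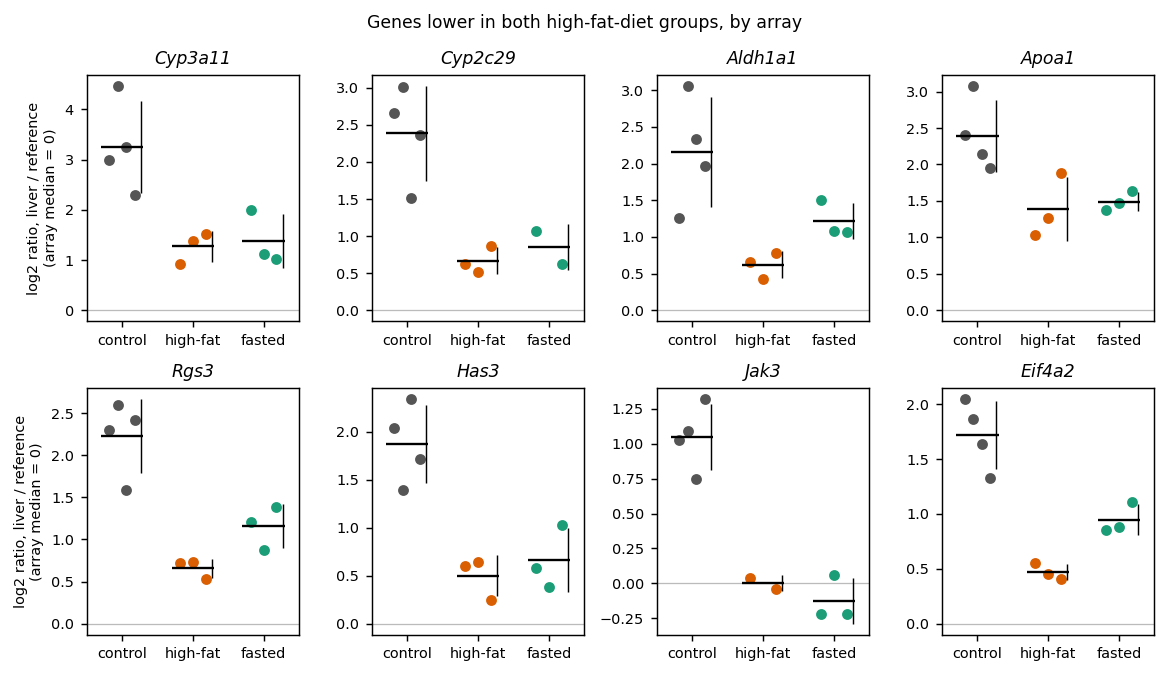
Log2 ratio of liver over reference by array for 8 genes that fell on the diet. Each point is 1 array, the horizontal line is the group mean and the vertical line is 1 SD, and each panel has its own axis. Fed and fasted diet arrays lie below the control arrays in each panel, except that 1 fasted array of Aldh1a1 overlaps with 1 control array.

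Of the 13 hepatocyte markers that could be tested 4 fell and 9 were not called, while 2.28% of all genes fell. The 4 were Cyp3a11, Cyp2c29, Apoa1 and Ttr, already described. The estimate was below 0 for all 13, with a median of -0.55. Their mean log2 ratio was between 1.75 and 2.79 on control arrays, between 1.19 and 1.41 on high-fat arrays and between 1.27 and 1.42 on fasted arrays, with control array 2 highest. Without control array 2 the median was -0.42 with 3 falls, with scaled arrays it was -0.18 with 2 falls, and after quantile normalisation -0.29 with 2 falls and with Cyp2e1 above 0, at 0.041. In whole tissue a smaller share of cells of a type and less RNA per cell cannot be told apart. Of 20 tested markers of other cells, 1 rose, 0 fell and the median was 0.22. Their mean was between -0.34 and -0.13 on control arrays and between -0.10 and 0.08 on diet arrays. The part of cell composition in the results was not tested.

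The riser among those markers was Kdr, the endothelial receptor for vascular endothelial growth factor. It was at 0.11, 0.42, -0.08 and 0.38 in control, at 0.60, 0.75 and 0.48 in high-fat and at 1.22, 0.97 and 1.14 in fasted mice. Fasted arrays were highest and control arrays lowest, and the change was 0.65 ± 0.17 (limma adjusted p = 0.0431). Kdr was no longer called when control array 1 or 3, high-fat array 2 or fasted array 1, 2 or 3 was left out (limma adjusted p = 0.0607 to 0.111), nor with centring on the spots that every array had filled (limma adjusted p = 0.0710). Tie1, the other endothelial marker tested, went the other way at -0.14 and was not called (limma adjusted p = 0.794). Pecam1, Lyve1 and Flt1 had no value on any of the 10 arrays. The Kupffer cell markers Clec4f, Adgre1 and Cd68 had none either. Cd163, a scavenger receptor of macrophages, stood at 0.55 with an adjusted p of 0.05004 in limma. No marker of red cells could be tested.

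The lists of fat synthesis, lipid droplet and fatty acid oxidation genes gave no call. All 8 genes of fatty acid and triglyceride synthesis that could be tested were lower on the diet, with a median of -0.24, which was -0.20 with scaled arrays and -0.18 after quantile normalisation. Fasn, the fatty acid synthase, was at -0.37 (limma adjusted p = 0.231). Scd1, the stearoyl-CoA desaturase, was at 2.25, 2.62, 1.54 and 1.55 in control, at 2.57, 1.92 and 2.00 in high-fat, and at 1.35 and 1.15 in the 2 fasted mice with a value. The fed arrays lay within the control range and the fasted arrays below it, and the change over the joined group was -0.19 (limma adjusted p = 0.750). Scd1 changed sign to 0.38 with scaled arrays and with quantile normalisation. Of the 9 lipid droplet genes, Pnpla2, the lipase that starts fat breakdown in droplets, came closest at -0.43 (limma adjusted p = 0.05004), and Cidec, which enlarges droplets, was at -0.09. Of 32 genes of fatty acid oxidation on the array only 7 could be tested, with a median of -0.08. Of 47 genes of amino acid breakdown and the urea cycle 12 could be tested, with a median of -0.29. Neither list had a call, and most of their members are left without an answer. Outside those lists Phyh, the peroxisomal enzyme that starts the breakdown of branched-chain fatty acids, was at 0.01, 1.13, -0.53 and 0.32 in control and between -1.43 and -0.73 on the 6 diet arrays. The groups did not overlap, and it fell by 1.16 (limma adjusted p = 0.0282).

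Further falls, 3 in number, were steroid-metabolising enzymes, picked out after their values had been seen. Other steroid enzymes that were tested were not counted, and 2.28% of all genes fell, so the 3 are given as single genes. Akr1c6, a 17-beta-hydroxysteroid dehydrogenase, lay between 1.11 and 2.28 in control and between 0.56 and 1.00 on the diet, and fell by 0.98 (limma adjusted p = 0.0212). Akr1c14, a 3-alpha-hydroxysteroid dehydrogenase, lay between 0.51 and 1.76 in control and between -0.09 and 0.46 on the diet, and fell by 0.96 (limma adjusted p = 0.0380). Hsd17b2, which oxidises estradiol to estrone, lay between 0.34 and 1.07 in control and between -0.20 and 0.19 on the diet, and fell by 0.69 (limma adjusted p = 0.0237). None of them overlapped between the groups, as held for 10.5% of all genes. Akr1c6 and Akr1c14 were not called with scaled or quantile-normalised arrays. Akr1c14 and Hsd17b2 were not called when neighbouring rows of the table were subtracted or with the replicate number as a block. Without control array 1, Akr1c6 was not called (limma adjusted p = 0.0520). The Akr1c14 call was lost without control array 1 or 2, high-fat array 1 or 2 or fasted array 1 or 2 (limma adjusted p = 0.0503 to 0.0850). The Akr1c genes have near-identical neighbours whose RNA the spots may share.

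The fall with the smallest p was that of Jak3, the kinase of cytokine receptors that share the common gamma chain. It was at 1.03, 1.09, 0.75 and 1.32 in control, at 0.04 and -0.04 on the 2 high-fat arrays with a value and at -0.22, 0.06 and -0.22 in fasted mice. The lowest control array stood well above the highest diet array, and the change was -1.12 ± 0.14 (limma adjusted p = 0.00826). Has3, a hyaluronan synthase, was at 2.04, 1.39, 2.34 and 1.72 in control, at 0.60, 0.64 and 0.25 in high-fat and at 0.58, 0.38 and 1.03 in fasted mice. It fell without overlap by 1.29 ± 0.19 (limma adjusted p = 0.0101). Rgs3, which speeds GTP hydrolysis by G protein alpha subunits, was at 2.30, 2.60, 1.59 and 2.42 in control, at 0.72, 0.73 and 0.53 in high-fat and at 1.21, 0.87 and 1.39 in fasted mice. Fasted arrays lay between the other groups, and the change was -1.32 ± 0.21 (limma adjusted p = 0.0101). These 3 genes were called under every alternative that tested them.

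Falls were also seen for Fv1, a retroviral restriction factor (2.01-fold lower), for Tnfrsf23, a decoy receptor of the tumour necrosis factor family (1.68-fold lower), and for Il17a, the cytokine interleukin-17A (1.61-fold lower). Fv1 and Tnfrsf23 were called under every alternative that tested them. Il17a was not called with scaled arrays (log2 change -0.40, limma adjusted p = 0.341) or after quantile normalisation (-0.32, limma adjusted p = 0.345). H2-D1, a class I antigen-presenting molecule, was at 1.20, 2.38, 1.73 and 1.79 in control, at 0.41, 0.70 and 0.90 in high-fat and at 1.25, 0.72 and 0.50 in fasted mice. Fasted array 1 overlapped with control array 1, and H2-D1 fell by 1.03 (limma adjusted p = 0.0235) as the only call of 5 inflammation and interferon genes. The H2-D1 call was lost when neighbouring rows of the table were subtracted and with the replicate number as a block. Ovol2, a zinc finger factor of epithelia, lay between -0.15 and 1.04 in control and between -1.28 and -0.18 on the diet. Its change was -1.26 (limma adjusted p = 0.0194). Zdhhc3, a palmitoyltransferase, had the third largest fall at -1.52, with the wide SE of 0.39 and an adjusted p of 0.0453 in limma. Zdhhc3 was no longer called when control array 1, 3 or 4, high-fat array 2 or 3 or fasted array 1 was left out (limma adjusted p = 0.0554 to 0.101), nor with scaled or quantile-normalised arrays (limma adjusted p = 0.101 and 0.0878). Zfp474, a zinc finger gene, fell by 1.16 (limma adjusted p = 0.0302). The Zfp474 call was lost without control array 2 or 4 or fasted array 2 (limma adjusted p = 0.0527 to 0.0577).

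Eif4a2, an RNA helicase of translation initiation, has 17 spots on the array, of which 5 held a value on all 10 arrays. Each of these 5 spots fell on its own, by between 0.95 and 1.26 log2 units, with limma adjusted p between 0.00893 and 0.0328. Averaged over its spots, Eif4a2 was at 2.05, 1.87, 1.63 and 1.33 in control, at 0.55, 0.46 and 0.41 in high-fat and at 0.86, 0.88 and 1.11 in fasted mice. The 3 groups stood apart from each other, with fasted mice in the middle. The change was -1.01 ± 0.17 (limma adjusted p = 0.0109). Csnk1a1, a casein kinase that marks beta-catenin for breakdown, also has several spots. Its average fell by 1.05 (limma adjusted p = 0.0109), its fully filled spot by 0.63 (limma adjusted p = 0.0432), and another spot, filled on 7 arrays, was at -0.16 (limma adjusted p = 0.682).

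Of 13 cytosolic ribosomal protein genes tested 2 fell and 0 rose, with 6 estimates above 0, 7 below and a median of -0.02. Rplp1, a protein of the ribosomal stalk, was at 2.93, 2.37 and 1.93 in control, at 1.36, 0.70 and 1.63 in high-fat and at 0.78, 1.13 and 1.21 in fasted mice. It fell without overlap by 1.27 ± 0.24 (limma adjusted p = 0.0195). Rpl13, of the large subunit, was at 1.79, 3.39, 2.15 and 1.90 in control, with diet values between 0.70 and 1.75. It fell by 1.18 (limma adjusted p = 0.0396). Both calls were lost with scaled and with quantile-normalised arrays. Rpl13 was no longer called when control array 2 or 3, high-fat array 2 or 3 or fasted array 2 or 3 was left out (limma adjusted p = 0.0527 to 0.0710). Ribosomal protein genes have many near-identical pseudogenes, so their spots may share RNA.

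The largest rise was that of Mcts1, a factor that helps ribosomes re-initiate and recycle. Its log2 ratio was 0.30, 2.14, 1.32 and 2.34 in control, 4.76 and 3.52 on the 2 high-fat arrays with a value, and 5.22, 5.57 and 4.74 in fasted mice. Every diet array lay above every control array, and fasted arrays were mostly the highest. Mcts1 was 9.43-fold higher on the diet (log2 change 3.24 ± 0.44, limma adjusted p = 0.0101) and was called under every alternative that tested it. It had no value on high-fat array 1, so it could not be tested without high-fat array 2 or 3. Mcts2, a retrogene copy of Mcts1 that a spot may not tell from it, rose by 0.78 with overlapping arrays (limma adjusted p = 0.0478). The Mcts2 call was lost without control array 1, 2 or 3, high-fat array 2 or 3 or fasted array 1, 2 or 3 (limma adjusted p = 0.0652 to 0.126) and with centring on the spots that every array had filled (limma adjusted p = 0.0679).

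Gabrr1, a rho subunit of the GABA-A receptor, was at -0.07, -0.03, 0.26 and 0.68 in control, at 1.01, 1.97 and 1.34 in high-fat and at 1.99, 2.24 and 1.40 in fasted mice. Fed and fasted arrays were interleaved, and all lay above the controls (log2 change 1.45 ± 0.24, limma adjusted p = 0.0101). Sumo2, a small ubiquitin-like modifier, was at -0.19, 0.24, 0.05 and 0.46 in control, at 1.08 and 1.13 on the 2 high-fat arrays with a value and at 1.05, 1.45 and 1.43 in fasted mice. The diet arrays lay close together above the controls (log2 change 1.09 ± 0.15, limma adjusted p = 0.0101). Their promoters are shown beside those of the P450 genes since they stand for the rising genes that passed every alternative that tested them. They cover the same window on the same build, for Gabrr1 on the plus strand (chr4:33132306-33132605) and for Sumo2 on the minus strand (chr11:115536181-115536480).
Gabrr1: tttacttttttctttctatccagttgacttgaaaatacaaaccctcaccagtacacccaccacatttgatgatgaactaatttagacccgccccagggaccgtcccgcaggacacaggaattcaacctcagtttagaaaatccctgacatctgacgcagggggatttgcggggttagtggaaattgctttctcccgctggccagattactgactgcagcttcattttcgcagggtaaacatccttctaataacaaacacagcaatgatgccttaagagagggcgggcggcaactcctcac
Sumo2: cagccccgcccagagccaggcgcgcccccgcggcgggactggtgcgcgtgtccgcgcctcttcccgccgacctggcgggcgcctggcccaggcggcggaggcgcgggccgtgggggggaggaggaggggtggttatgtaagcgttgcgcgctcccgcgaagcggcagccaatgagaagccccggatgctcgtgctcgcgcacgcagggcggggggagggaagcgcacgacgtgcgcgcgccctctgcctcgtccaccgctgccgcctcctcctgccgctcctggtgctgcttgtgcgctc
Neither window holds TATAAA or AGGTCA on either strand, so nothing is in capitals. The Sumo2 window has 42 CpG dinucleotides and 76.3% G and C, the Gabrr1 window has 9 and 47.3%, and the windows of Cyp3a11 and Cyp2c29 have 2 each with 46.3% and 35.3%. Over the called genes, the median ratio of observed to expected CpG was 0.777 for rises and 0.688 for falls, against 0.685 for all tested genes and 0.389 for the whole table.

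Of the other rises called under every alternative that tested them, Six2, a homeobox factor known from kidney progenitors, was at -0.89, -0.92, -0.94 and -0.69 in control, at -0.19, -0.02 and -0.32 in high-fat and at -0.22, -0.23 and -0.12 in fasted mice. The fed and fasted values interleaved, with a fasted-minus-high-fat difference of -0.01 (95% interval -0.30 to 0.27), and all were above control (log2 change 0.68 ± 0.10, limma adjusted p = 0.0101). Slc66a1, the lysosomal exporter of basic amino acids, was at 0.03, 0.33, 0.33 and 0.30 in control, at 0.80, 1.09 and 0.71 in high-fat and at 0.73, 0.80 and 0.98 in fasted mice. Here too both diet groups shared 1 range above control (log2 change 0.60 ± 0.12, limma adjusted p = 0.0195). Rnf5, a ubiquitin ligase of the endoplasmic reticulum, was at -0.17, 0.09, -0.18 and 0.22 in control, at 0.51, 0.72 and 0.58 in high-fat and at 1.03, 0.95 and 0.84 in fasted mice. The 3 groups formed steps with the fasted arrays on top, and the change was 0.78 ± 0.14 (limma adjusted p = 0.0109). Hoxa10, another homeobox gene, rose by 0.65 (limma adjusted p = 0.0135) and lost its call when neighbouring rows of the table were subtracted.

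Dlg4, a scaffold protein of synapses, was at 0.45, 1.90, 0.85 and 1.26 in control, at 3.46 and 2.11 in high-fat and at 2.41, 2.78 and 4.32 in fasted mice. Copz2, a coatomer subunit of Golgi transport vesicles, was at 3.03, 3.80, 2.38 and 3.56 in control, at 4.45, 5.45 and 3.88 in high-fat and at 5.23, 4.85 and 6.09 in fasted mice. Neither gene overlapped between the groups, although the lowest diet array lay close to the highest control array. Dlg4 rose by 1.90 ± 0.41 (limma adjusted p = 0.0283) and Copz2 by 1.80 ± 0.38 (limma adjusted p = 0.0237). Ccdc124, a ribosome-associated protein, rose by 1.32, and 5830448L01Rik, an uncharacterised transcript, by 1.84 (limma adjusted p = 0.0398 and 0.0289). Without control array 1 or 3, Dlg4 was not called (limma adjusted p = 0.0668 to 0.0701). The Copz2 call was lost without control array 1 or 3 (limma adjusted p = 0.0554 to 0.0627) and after quantile normalisation (limma adjusted p = 0.0542). Ccdc124 was no longer called when control array 1 or 3, high-fat array 2 or fasted array 1, 2 or 3 was left out (limma adjusted p = 0.0551 to 0.104), nor with centring on the spots that every array had filled (limma adjusted p = 0.0546). Without control array 1 or 4, 5830448L01Rik was not called (limma adjusted p = 0.0504 to 0.0816). Subtracting neighbouring rows of the table also took the calls of Dlg4, Copz2, Ccdc124 and 5830448L01Rik. Of the 12 largest rises, 9 had values on all 3 high-fat arrays, and in 8 of these 9 (88.9%) high-fat array 2 was the highest. That array was the highest of the 3 in 57% of the rises filled on all 3 and in 35.9% of all such genes. Without high-fat array 2 the number of genes called fell to 70. Control array 2 was the highest control in 7 of the 10 largest falls with all 4 control values (70%), in 52.7% of all such falls and in 24.3% of all such genes.

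Fosb, a partner of Jun in the AP-1 factor, was at 0.09, 0.90, 0.26 and 0.38 in control, at 0.91, 2.36 and 1.20 in high-fat and at 1.87, 2.18 and 1.32 in fasted mice. The lowest diet array was level with the highest control array to within 0.01, and Fosb rose by 1.23 ± 0.27 (limma adjusted p = 0.0282). The Fosb call was lost without control array 1 or 3 or fasted array 2 (limma adjusted p = 0.0544 to 0.0702). Jun itself was at -0.86, -0.73, -0.90 and -0.88 in control, at -0.03, -0.41 and -0.21 in high-fat and at -0.51, -0.52 and -0.35 in fasted mice. It rose by 0.50 without overlap (limma adjusted p = 0.0350). Jun was no longer called when control array 1, 3 or 4 or high-fat array 2 or 3 was left out (limma adjusted p = 0.0505 to 0.0770), with scaled arrays (limma adjusted p = 0.0711) or with centring on the spots that every array had filled (limma adjusted p = 0.0777). The AP-1 motif TGACTCA was found on either strand in 0 of the 74 rising promoters, in 2 of the 63 falling ones (3.18%) and in 3.68% of all tested genes with a promoter. Mesp2, a factor of somite formation, lay between -1.14 and -0.63 in control and between -0.23 and 0.93 on the diet, a rise of 1.00 (limma adjusted p = 0.0207). Its call was lost when neighbouring rows of the table were subtracted and with the replicate number as a block.

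Among 19 genes of the extracellular matrix 2 rose and 0 fell, with a median of -0.05. Eln, the elastin gene, was at 0.48, 0.90 and 0.93 in control, at 1.20, 1.80 and 2.16 in high-fat and at 2.63, 2.69 and 1.36 in fasted mice, a rise of 1.20 (limma adjusted p = 0.0465). The Eln call was lost without control array 1, 2, 3 or 4, high-fat array 2 or 3 or fasted array 1 or 2 (limma adjusted p = 0.0650 to 0.131) and with centring on the spots that every array had filled (limma adjusted p = 0.0619). Col25a1, a membrane collagen, was at 0.78, 2.74, 1.60 and 2.48 in control, at 2.53, 3.86 and 3.44 in high-fat and at 3.75, 4.22 and 3.23 in fasted mice. High-fat array 1 overlapped with the controls, and the change was 1.61 (limma adjusted p = 0.0332). Col25a1 was no longer called when control array 1 or 3, high-fat array 2 or fasted array 1 or 2 was left out (limma adjusted p = 0.0565 to 0.0782). Col15a1, a basement membrane collagen, stood at -1.73 with an adjusted p of 0.05004 in limma. Ndufb4, a subunit of complex I, was the only call among 17 genes of oxidative phosphorylation. It rose by 0.53 with overlapping arrays (limma adjusted p = 0.0398), while the list's median was -0.11. The Ndufb4 call was lost without control array 1, 2 or 3, high-fat array 1 or 2 or fasted array 2 or 3 (limma adjusted p = 0.0551 to 0.0935). It was also lost with centring on the spots that every array had filled, with scaled arrays and after quantile normalisation (limma adjusted p = 0.0733, 0.0918 and 0.0543).

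Several rises of like size were not called, and their diet arrays were widely scattered. P4hb, a protein disulfide isomerase, was at 0.27, 2.62, 1.21 and 2.09 in control, at 1.83, 4.62 and 2.70 in high-fat and at 2.62, 2.81 and 4.19 in fasted mice. Its change of 1.58 had an SE of 0.54 (limma adjusted p = 0.103). Cct6b, a chaperonin subunit, was at 0.24, -0.28 and -0.07 in control, at 0.49, 0.16 and 1.79 in high-fat and at 2.41, 2.73 and 3.07 in fasted mice. The fasted arrays were far above all others, so its change of 1.81 over the joined group had an adjusted p of 0.0802 in limma. Psmd2, a proteasome subunit, stood at 1.70 (limma adjusted p = 0.0740). Psmb5, another proteasome subunit, went the other way at -0.57 and came closer to the threshold (limma adjusted p = 0.05004). The lists to which they belong had medians of 0.08 over 18 chaperone and endoplasmic reticulum genes and 0.02 over 11 proteasome genes, with no call.

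**Figure D2:**
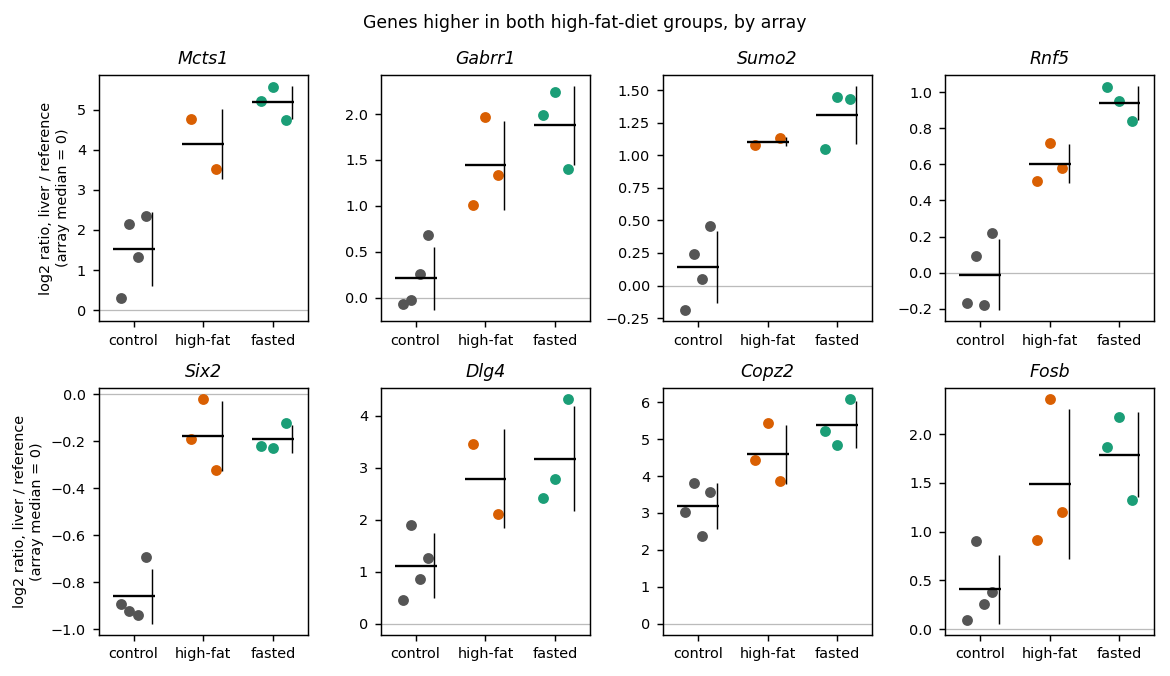
Log2 ratio of liver over reference by array for 8 genes that rose on the diet, drawn as points for arrays, a horizontal line for the group mean and a vertical line for 1 SD, with a separate axis for each panel. Control arrays lie lowest in each panel. In Rnf5 the fasted arrays lie above the fed ones, while in Six2 both diet groups share 1 range.

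**Figure D3:**
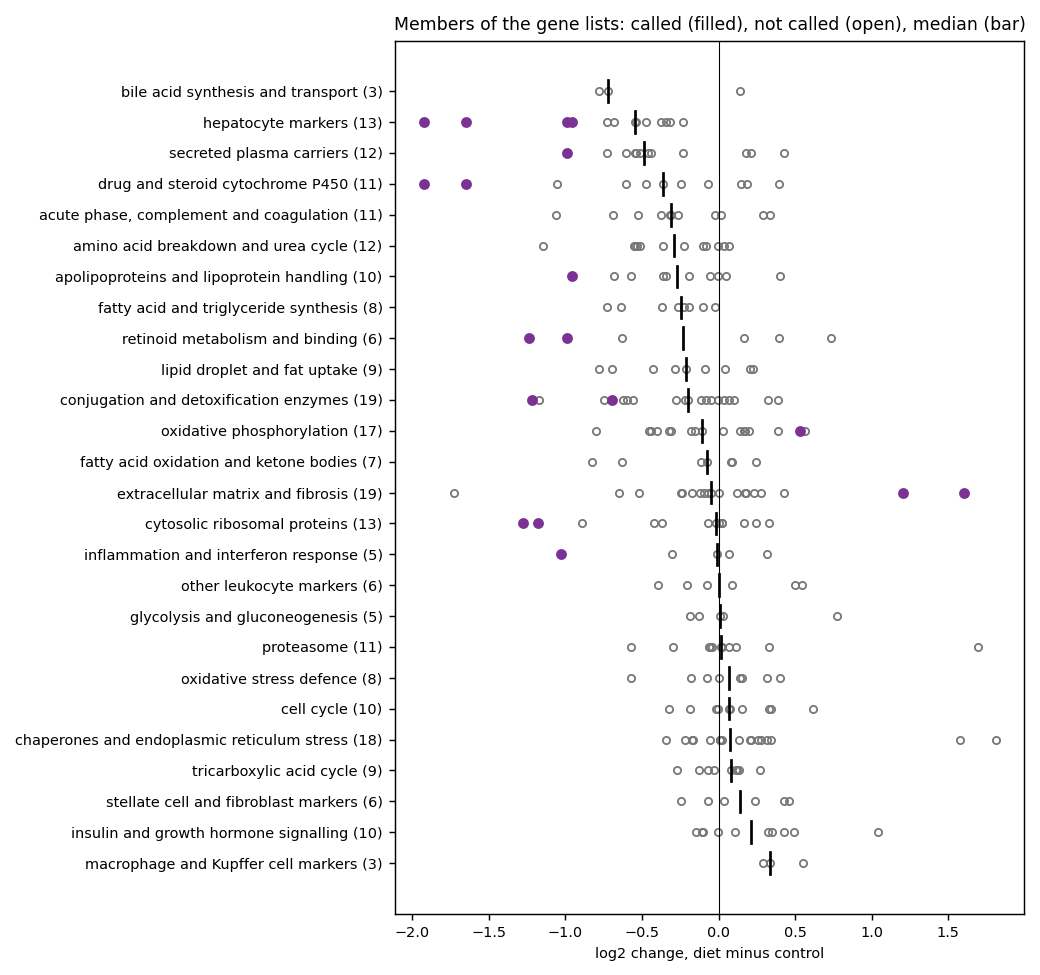
Log2 change, diet minus control, of each tested member of 26 gene lists, with the number of tested members after each name. Filled points were called, open points were not, and the bar is the list's median. The hepatocyte markers have the most calls of any list (4 of 13) and all lie below 0.

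In all, 250 tested genes were on at least 1 of the 34 lists and 14 of them were called, 5.6% of these genes against 5.23% over all genes. The pathway lists not yet described gave no call. Their medians were 0.01 over 5 genes of glycolysis and glucose synthesis, 0.08 over 9 genes of the tricarboxylic acid cycle, 0.07 over 8 genes of oxidative stress defence, 0.21 over 10 genes of insulin and growth hormone signalling and 0.07 over 10 cell cycle genes. Bile acid synthesis and transport had 3 tested genes with a median of -0.73. Cholesterol synthesis and the circadian clock had 2 tested genes each.

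Fed and fasted diet mice were then set side by side. The fasted-minus-high-fat difference was called for 13 of the 3558 genes (0.365%), and 520 genes (14.6%) had an unadjusted p under 0.05. Among the 186 diet genes 1 was called and 18 (9.68%) had an unadjusted p under 0.05. The median size of the difference was 0.17 log2 units for diet genes and 0.18 for all genes, and the median half-width of its 95% interval was 0.38 for both. For 136 of the 186 genes that interval lay within plus or minus the size of the gene's own diet change, and for the other 50 it did not. The diet test itself favours a small difference of this kind. When the joined change was instead taken from a fit with a mean for each group, 290 genes were called (174 rises and 116 falls), among them the 186. Of these 290, 6 differed between fed and fasted mice and 62 (21.4%) had an unadjusted p under 0.05.

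For the genes with the largest falls and rises the changes of fed and fasted mice against control are given together, and both use the same 4 control arrays. Cyp3a11 changed by -1.98 in fed and -1.87 in fasted mice, with a fasted-minus-high-fat difference of 0.11 (95% interval -0.85 to 1.07). Cyp2c29 changed by -1.72 and -1.54, Has3 by -1.38 and -1.21, and Jak3 by -1.05 and -1.17. Rgs3 changed by -1.57 in fed and -1.07 in fasted mice, with a difference of 0.50 (95% interval -0.01 to 1.00). Shld1, a subunit of the shieldin complex of DNA repair, showed a step of like size. It was at 1.72, 1.04, 1.19 and 1.05 in control, at 0.27, -0.02 and 0.09 in high-fat and at 0.77, 0.84 and 0.61 in fasted mice, and fell by 0.82 over both (limma adjusted p = 0.0370). Shld1 was no longer called when control array 1 or 3 or high-fat array 1, 2 or 3 was left out (limma adjusted p = 0.0523 to 0.0854). Nor was it called on values as deposited, with scaled arrays or after quantile normalisation (limma adjusted p = 0.0829, 0.0741 and 0.0929). The difference between fed and fasted mice was 0.63 (95% interval 0.23 to 1.02, limma adjusted p = 0.152).

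Among the rises, Mcts1 changed by 3.65 in fasted mice and by 2.62 in fed mice, with a difference of 1.04 (95% interval -0.16 to 2.24). Copz2 changed by 1.40 in fed and 2.20 in fasted mice, and Sumo2 by 0.97 and 1.17. Rnf148, a ubiquitin ligase of the RING family, ran the other way. It was at -1.07, -1.01, -0.97 and -0.58 in control, at 0.12, 0.36 and 0.32 in high-fat and at -0.18, -0.18 and -0.11 in fasted mice, so fed mice were highest and the groups did not overlap. Its diet change was 0.96 ± 0.15 (limma adjusted p = 0.0101) and its fasted-minus-high-fat difference -0.42 (95% interval -0.75 to -0.10, limma adjusted p = 0.235).

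The diet gene whose fed and fasted values differed past the threshold was Nt5c3, a nucleotidase of pyrimidine breakdown. It was at 0.49, 0.43, 0.42 and 0.73 in control, at 1.03, 1.49 and 1.41 in high-fat and at 2.14, 2.94 and 2.64 in fasted mice. The 3 groups formed steps without overlap, the diet change was 1.42 ± 0.32 (limma adjusted p = 0.0283), and the fasted-minus-high-fat difference was 1.26 (95% interval 0.82 to 1.70, limma adjusted p = 0.0368). Nt5c3 has 2 spots, of which 1 was filled on all 10 arrays. On that spot alone the diet change was 1.66 (limma adjusted p = 0.0203) and the fasted-minus-high-fat difference 0.74 (limma adjusted p = 0.384). The Nt5c3 diet call was lost without control array 1, 2 or 3 (limma adjusted p = 0.0555 to 0.0650).

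**Figure D4:**
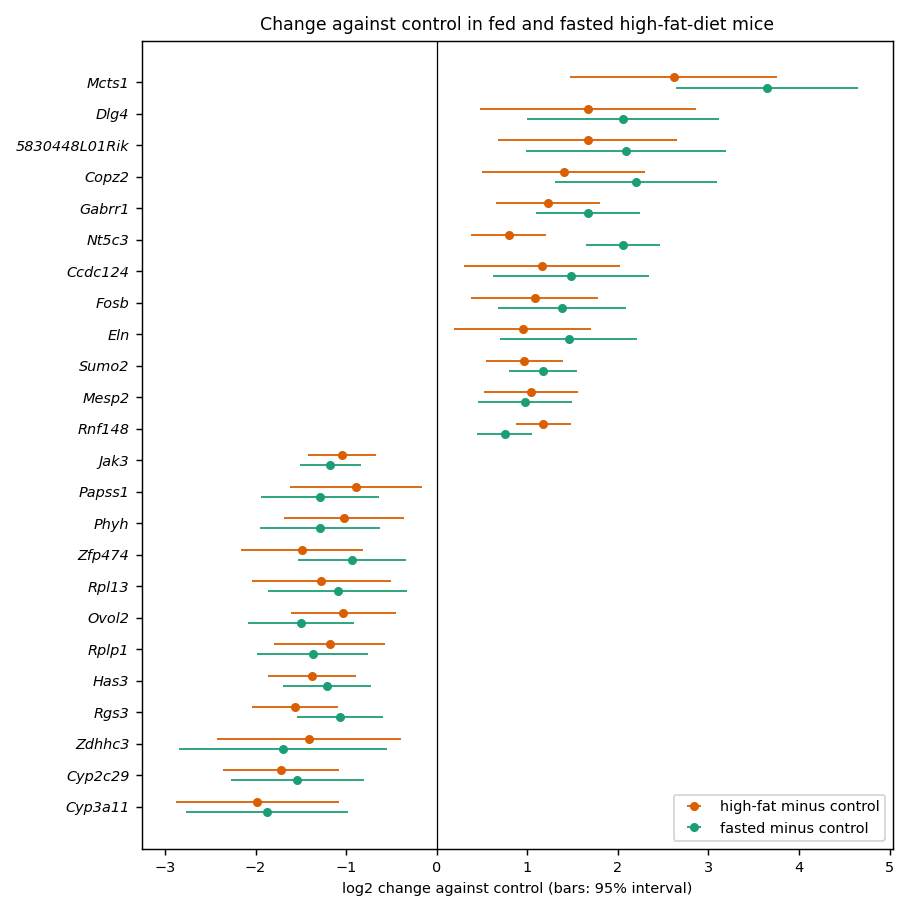
Log2 change against control, with its 95% interval, in fed (high-fat) and fasted diet mice for the 12 largest rises and the 12 largest falls that had no overlap between diet and control arrays. Both changes of a gene lie on the same side of 0, as choosing genes by the joined change favours. Nt5c3 shows the widest gap relative to its intervals.

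Rises and falls differed in where the genes stood against the reference RNA. In control mice all 81 falling genes were above the array median (100%), against 47.3% of all genes, and their median log2 ratio was 1.37. Of the 105 rising genes 81 were below it (77.1%), against 52.6% of all genes, and their median was -0.39. On the diet these medians were 0.62 and 0.24. Control values enter both the level and the change, so part of this pattern is built in. Over all genes the change had a slope of -0.11 on the mean level. The spread of an array's log ratios, as its median absolute deviation, was 0.64 to 0.77 on control arrays, 0.39 to 0.58 on high-fat arrays and 0.65 to 0.73 on fasted arrays. With scaled arrays the slope was 0.06 and 101 genes were called (78 rises and 23 falls). With quantile normalisation it was 0.03 and 143 genes were called (120 rises and 23 falls), and 80 of the 186 genes were called under both. Thus fewer falls than rises passed once the arrays had the same spread, and the part of array spread in the single falls was not tested further.

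**Figure D5:**
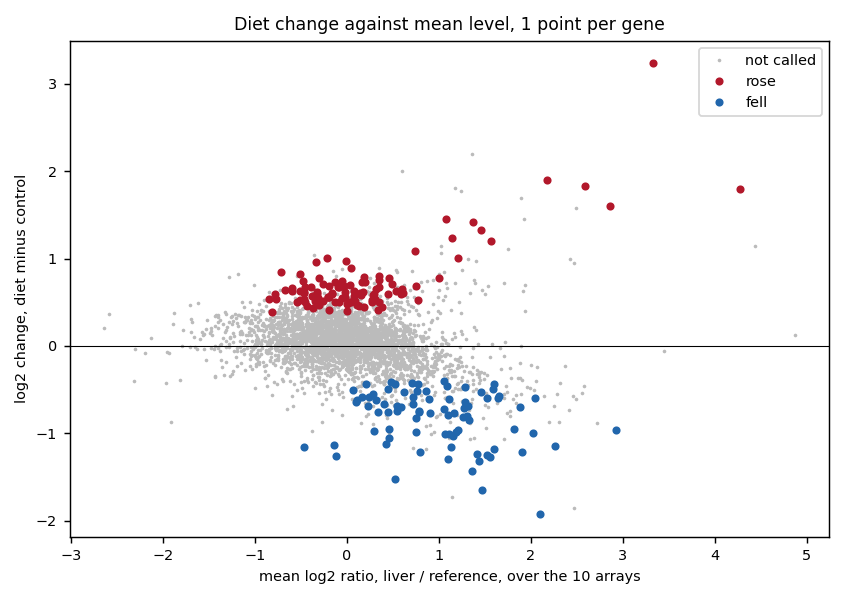
Log2 change, diet minus control, against the mean log2 ratio over the 10 arrays, with 1 point per gene. Genes that rose are red, genes that fell are blue and the rest are grey. Falls sit mostly at ratios above 0, small rises around 0, and the few rises above 1 at higher ratios, with Mcts1 at the top.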

How the data were processed

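The authors deposited 1 table of log ratios of liver over reference per array, taken here as log2 because the base is not given in the sources used here. With another base every change would be off by 1 constant factor. Scanner, background correction, normalisation and the rule for empty cells are not given either, so it is unknown how far a spot stood above background, and precision rests on the number of arrays. Spots were named from the platform's table (14718 with 1 symbol, 1 with several, 2561 with none, and no symbol needed an update). They are paired with no genome build.

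Each array was centred on its median, and spots of 1 symbol were averaged. limma 3.58.1 in R 4.3.3 (lmFit and eBayes, two-sided tests) compared the 6 diet with the 4 control arrays. A second fit with 1 mean for each of the 3 groups gave the fed and fasted changes and their 95% intervals. P-values were adjusted by Benjamini-Hochberg over all 3558 genes. The labels describe 1 mouse per array, so p-values measure the spread between these mice. Whether equal replicate numbers pair mice could not be decided from the values. The deviations of same-numbered arrays from their group means correlated with r between -0.18 and 0.18 over 9 pairs. For arrays with unlike numbers r lay between -0.23 and 0.25, and deviations within a group are bound to sum to 0.

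Candidates for naming were the 12 largest rises and 12 largest falls with 1 symbol, at least 3 control and 5 diet values and no overlap. Further candidates were the 5 called genes with the largest fed-fasted gap and a few marker genes wherever tested. Each list with 3 or more tested members added its 3 members with the smallest p and any called member. Not all candidates are given in the text. Other genes in the text were picked after their values were seen. Members, lists and rules were chosen with earlier results of these data known. The pipeline was tested on simulated data with independent noise for each gene, of the same size on every array. Such data cannot speak to the differences in spread between the real arrays. High-fat array 4 was left out for its lack of correlation with the other arrays, and counts with it are in the closing section. Promoters come from RefSeq (GRCm38.p6), 1 start per gene.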

Additional observations from a re-analysis of the deposited data

Results flagged for a closer look

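Within the control and the diet arrays of the genes named, 126 groups were checked for an array far from the others, and 5 had one, where chance gives about 1 in 20. Papss1 was lowest on fasted array 1 at -1.47, with the nearest diet array at -0.50. Phyh was lowest on fasted array 3 at -1.43, with the nearest diet array at -0.96. Ndufb4 was highest among controls on control array 4 at -0.61, with the nearest at -0.89. Gstm1 was highest among controls on control array 2 at 3.00, with the nearest at 2.04. Slc66a1 was lowest among controls on control array 1 at 0.03, with the nearest at 0.30. Nt5c3 differed between fasted and fed diet mice by 1.26 (limma adjusted p = 0.0368), and its fully filled spot alone gave 0.74 with an adjusted p of 0.384.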

How the results depend on the processing

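The 186 genes kept their direction under every alternative that tested them, as choosing them by their change on the same arrays favours. Directions were not counted for the test of each row on its own. Far fewer genes kept their call. With the test of each row on its own left aside, 16 genes (7 rises and 9 falls) were called under every alternative that tested them. Csnk1a1 is 1 of the 16, although 1 of its spots alone was at -0.16 (limma adjusted p = 0.682). Under every omission of 1 array that left them testable 36 genes were called. Mcts1 and Sumo2 could not be tested without high-fat array 2 or 3. The same held for Jak3 and Fv1 without high-fat array 1 or 3 and for Cyp2c29 without fasted array 1 or 2. Leaving out 1 array gave between 69 and 182 calls for the diet (69 without control array 1 or 3, 70 without high-fat array 2, 72 without fasted array 2, 108 without fasted array 1 or high-fat array 3, and 110 without control array 2) and between 3 and 23 for fasted minus high-fat. Including high-fat array 4 gave 57 and 3. The fit with a mean for each group gave 290 diet genes. Scaled arrays gave 101 diet genes, and quantile normalisation gave 24 genes for fasted minus high-fat. Subtracting the median of 10 filled rows on each side in table order, as the spot layout was not analysed here, gave 45 and 22, with 31.1% rises. Values on all 10 arrays gave 7 and the looser filter on missing values 3 for fasted minus high-fat. Array weights gave 130 for that contrast and the 6 diet arrays alone 49. With the replicate number as a block, 86 and 4 genes were called, and whether these numbers pair the mice is not known. Values as deposited shifted the median of all genes to 0.14. The sign turned for Cyp2e1 with quantile normalisation (0.041), for Scd1 with scaled arrays and with quantile normalisation (0.38 each) and without control array 2 (0.018, in a range from -0.39 over the omissions of 1 array), for Cidec as deposited (0.053) and with neighbouring rows subtracted (0.18), and for Pnpla2 with quantile normalisation (0.011). The cause of these changes was not tested. Of 48 named genes that were called, 33 lost the call under at least 1 alternative. The losses given with single genes above are not complete. They cover the omission of 1 array and the scalings, and other alternatives for a few genes only. Subtracting neighbouring rows also took the calls of Kdr, Fosb and Mcts2, among others.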

Other observations

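Of the 186 diet genes, 20 have no symbol in the platform's table and are not named here. For 25 of the called genes the array holds more than 1 spot, though most of these further spots had no value. Mta3, a subunit of a chromatin remodelling complex, had 1 spot with a diet change of 1.21 (limma adjusted p = 0.0472, filled on 9 arrays) and another with 0.01 (limma adjusted p = 0.977, filled on all 10). Hmgxb4, a high-mobility-group protein, had spots at -0.61 (limma adjusted p = 0.0344) and -0.23 (limma adjusted p = 0.237). For Mta3 and Hmgxb4 only 1 of these spots was called on its own. Nkd1 was called at -0.64, while its fully filled spot alone was at -0.31 (limma adjusted p = 0.153). No spot of Deptor, which was called at -0.67, could be tested alone. The average of Csnk1a1 fell by more than either of its spots that could be tested, and a further spot, filled on 5 arrays, enters that average.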
